A study of Homo sapiens with 18 samples.

Results

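The TRAIL and FAS death receptor genes are 10 genes chosen by name and role, with earlier results of these data known: the ligand TRAIL (TNFSF10), its death receptors DR4 (TNFRSF10A) and DR5 (TNFRSF10B), the receptor FAS, the TRAIL decoy receptors DcR1 (TNFRSF10C) and DcR2 (TNFRSF10D), the adaptor FADD, the initiator caspases CASP8 and CASP10, and CFLAR, which encodes the caspase-8 inhibitor FLIP. All 10 were found, each once, among the 30727 gene identifiers of the table. The 18 RNA-seq libraries, 3 in each of 6 groups, came from PC9, an established line of human lung cancer cells that need the kinase EGFR to grow. In parental_DMSO, parental cells received the solvent DMSO, for a time the labels do not give. DTP are the drug-tolerant cells that survived erlotinib, an inhibitor of EGFR, at 1 µM for 8 days. DTP_TSA are such cells after 5 hours with TSA, a histone deacetylase inhibitor, at 50 nM. Erlotinib_24h are parental cells after 24 hours in 1 µM erlotinib. Carboplatin_72h are parental cells exposed for 72 hours to carboplatin, which crosslinks DNA, at 50 µM, and parental_TSA are parental cells after 5 hours in 50 nM TSA. Erlotinib medium was renewed during the DTP treatment and carboplatin medium daily, while the labels state no media change for the TSA and 24-hour groups. The DTP labels describe ALDH-sorted cells as well, but no title names any, and DTP is read here as unsorted survivors. All groups come from 1 cell line. Libraries are named by group and letter, and the labels do not say that the letters were separate cultures, so p-values measure the spread between these libraries, which may be technical.

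As background, TRAIL and the FAS ligand are members of the TNF family that bind death receptors on the cell surface. The bound receptors recruit FADD, FADD recruits CASP8 and CASP10, and the caspases activate each other in that complex and start apoptosis, while FLIP takes their place in the complex and can block them. The decoy receptors bind TRAIL, but DcR1 has no death domain and that of DcR2 is truncated. Many lung cancer cells carry TRAIL receptors, and DR5 is a known target gene of the stress factor CHOP.

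Gene reads ran from 32139343 to 128293531 per library. Levels are counts per 1000000 gene reads (CPM) with TMM-scaled library sizes, fold changes are log2 with their SE, and adjusted p is the Benjamini-Hochberg value of edgeR's quasi-likelihood test over the 17641 genes tested, called at 0.05. DTP_TSA a stood apart: it held 99.9 spike-in reads per 100 gene reads, against 0.321 to 0.786 in the other 17 libraries, and it had the fewest gene reads. It and parental_TSA a departed from their mates in several of the genes below, so the TSA counts and some of the TSA changes are also given without both. Every value given with spike-in library sizes also leaves out DTP_TSA a, in all comparisons. The 6 epithelial markers were present in every group and summed to 3311 to 7602 CPM per library. The 7 fibroblast markers summed to 4.70 to 4.78 CPM in parental_DMSO, 24.3 to 28.3 in DTP, 29.4 to 32.2 in DTP_TSA, and between 13.2 and 26.4 in the 3 other groups, nearly all of it COL1A1. Of the 4 fibroblast markers tested 3 were called higher in DTP and in erlotinib_24h: COL1A1, DCN and LUM. Over all genes, 31% rose and 27.8% fell in DTP, and 36.6% and 32.7% in erlotinib_24h. DCN and LUM had 0 reads in parental_DMSO, 75 and 70 in DTP and 16 and 187 in erlotinib_24h. They reached no more than 0.331 and 0.801 CPM in any library. Both passed the expression filter through the groups where they are high, so they had to differ somewhere and their rise is only a description. COL1A2 and THY1 never passed 0.0414 and 0.0265 CPM. The 6 endothelial markers summed to 17.5 to 18.4 CPM in parental_DMSO, 113 to 118 in erlotinib_24h and 21.4 to 49.5 in the other groups, mostly PECAM1 and CDH5, and ERG never passed 0.0431 CPM. Of the 4 endothelial markers tested, 3 rose and 1 fell in DTP and 4 rose in erlotinib_24h. The 1 that fell in DTP was PECAM1, at 8.97 to 9.72 CPM in parental_DMSO and 2.71 to 2.97 in DTP. PECAM1 was at 1.83 to 4.58 CPM in DTP_TSA. VWF and KDR had 8 and 11 reads in parental_DMSO and passed the expression filter through the groups where they are high. They too had to differ somewhere, and their rise is only a description. VWF was at 0.0265 to 0.0414 CPM in parental_DMSO, 0.777 to 0.809 in DTP, 2.11 to 2.92 in erlotinib_24h and 3.41 to 4.13 in DTP_TSA, and KDR was at 0.0397 to 0.0682 CPM in parental_DMSO, 0.488 to 0.738 in DTP and 7.54 to 11.97 in DTP_TSA. The 8 leukocyte markers summed to 23.0 to 70.5 CPM, nearly all CD68. CD14 had 4 reads in parental_DMSO and at most 1.77 CPM in any library, and PTPRC and CD3E stayed at or under 0.0986 and 0.185 CPM. The part of these marker changes in the results was not tested. Fewer cells that express a gene and less RNA per cell cannot be told apart in these bulk libraries.

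The gene with the widest range was TNFSF10, and the 250 bases before its start are shown for that reason. RefSeq promoter sequences were found for 5 of the 10 genes (TNFSF10, FAS, FADD, CASP8 and CFLAR), and TNFSF10 has 1 entry. The bases lie at chr3:172523431-172523680 on the minus strand of GRCh38.p14 and are written 5′ to 3′ along the gene. Capitals mark the match, on the opposite strand, to the core of the interferon-stimulated response element, which is GAAA, any 2 bases and GAAA again.
TNFSF10 promoter: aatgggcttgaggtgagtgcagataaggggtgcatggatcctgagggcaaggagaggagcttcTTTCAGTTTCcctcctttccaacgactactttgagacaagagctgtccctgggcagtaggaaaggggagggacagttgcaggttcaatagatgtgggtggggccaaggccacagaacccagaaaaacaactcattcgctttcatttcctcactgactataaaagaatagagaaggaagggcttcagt
The match runs from 187 to 178 bases before the start. Of 35116 RefSeq promoters searched over the 250 bases before the start, 3.0% held that core on either strand. The 250 bases of TNFSF10 held no match to the forkhead element GTAAACA, the GC box GGGCGG or the AP-1 element TGACTCA. They also held none to the STAT (GAS) element TTCNNNGAA, where N is any base. Of all promoters searched, 3.0%, 42.6%, 4.2% and 6.6% held those, in that order. These are matches of letters and were not tested for binding.

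The ligand gene TNFSF10 was nearly silent in untreated cells and rose in both erlotinib groups. Its level in parental_DMSO was 0.0409, 0.0795 and 0.0276 CPM in libraries a, b and c, from 3, 6 and 2 reads. In erlotinib_24h it was 90.6, 85.1 and 87.7 CPM, from 21845 reads over the group. DTP had 4.05, 4.79 and 4.36 CPM. Both erlotinib groups lay far above every untreated library, and DTP lay between the untreated and the 24-hour cells without overlap with either. The log2 fold change against parental_DMSO was 10.74 ± 0.39 in erlotinib_24h (adjusted p = 1.55e-13) and 6.43 ± 0.41 in DTP (adjusted p = 5.87e-10). Since the untreated group held only 11 reads, these folds carry counting error: the read ratio was 1760 (95% exact interval 986 to 3540) in erlotinib_24h and 88.5 (49.3 to 178) in DTP. Intervals here cover counting error only. TNFSF10 passed the expression filter through the groups where it is high. It therefore had to differ somewhere, and its calls here and below are only a description. DTP was 19.9-fold lower than erlotinib_24h (-4.32 ± 0.24, adjusted p = 1.49e-10). In carboplatin_72h, TNFSF10 was at 0.0246, 0.120 and 0.196 CPM, from 25 reads, and overlapped parental_DMSO. That comparison gave 1.13 ± 0.73 (adjusted p = 0.198), but 1.63 (adjusted p = 0.0442) without carboplatin_72h a, the library with 2 reads, and 1.76 (adjusted p = 0.0401) with spike-in library sizes.

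**Figure D1:**
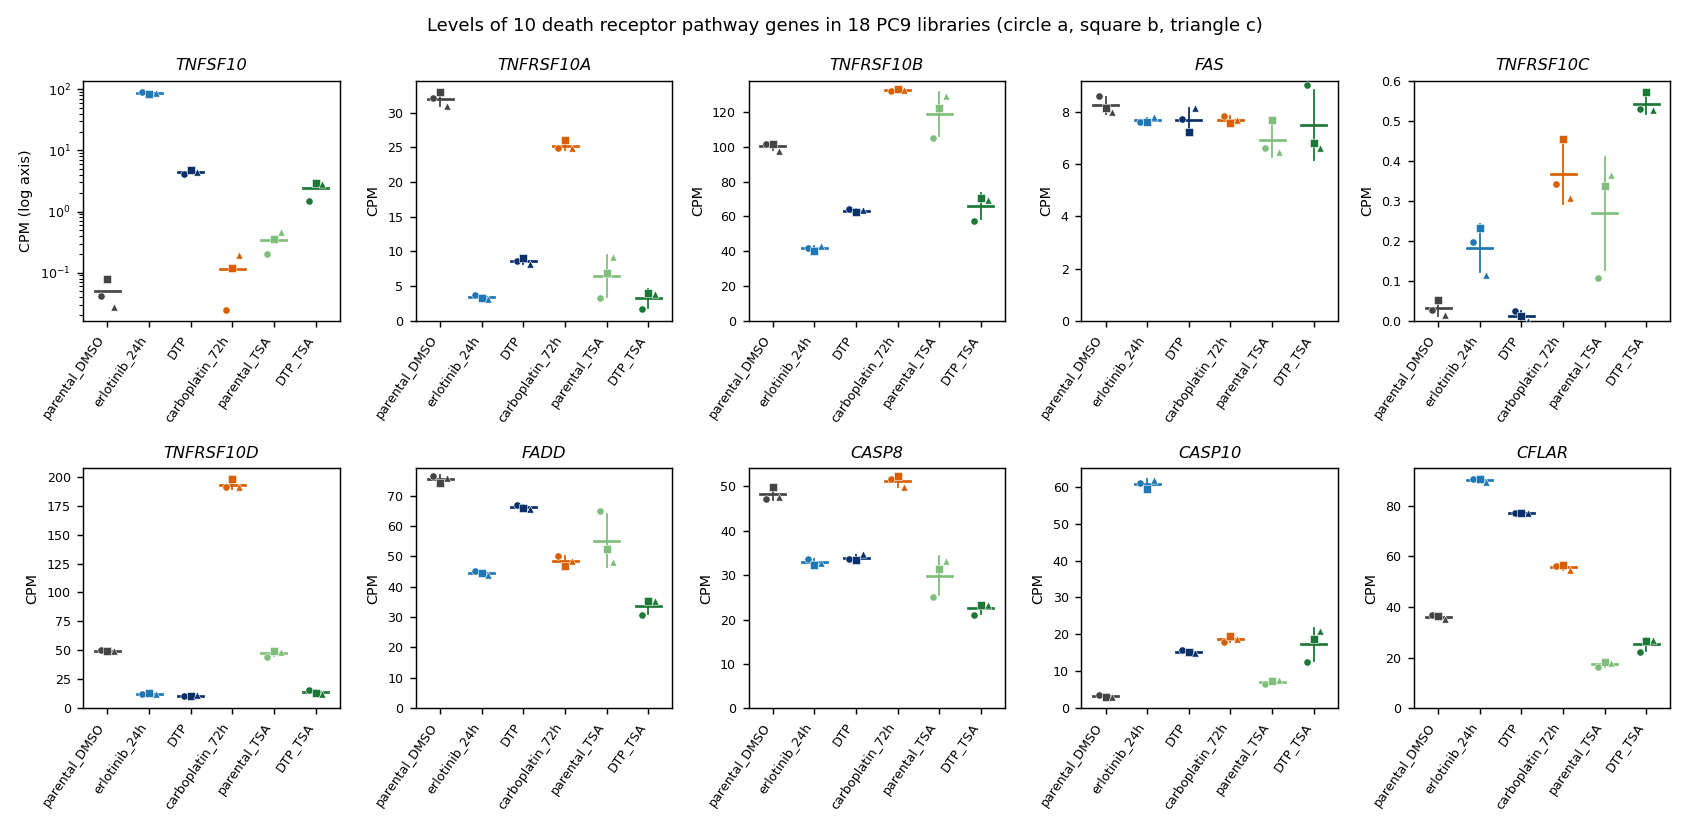
Level of each gene (CPM, vertical axis; log axis for TNFSF10, linear from 0 for the others) in the 6 groups; each symbol is 1 library, horizontal bars are group means and vertical bars the SD (n = 3, not drawn for TNFSF10). TNFSF10 and CASP10 peak in erlotinib_24h at 87.8 and 60.7 CPM, TNFRSF10D peaks in carboplatin_72h at 193 CPM, and FAS stays between 6.49 and 9.05 CPM in all 18 libraries.

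The death receptor genes TNFRSF10A and TNFRSF10B both fell under erlotinib, and TNFRSF10A fell further. TNFRSF10A, which encodes DR4, was at 32.1, 33.0 and 30.9 CPM in parental_DMSO and at 3.67, 3.35 and 3.11 CPM in erlotinib_24h. In DTP it was at 8.64, 9.05 and 8.26 CPM. No library of either erlotinib group reached the lowest untreated one. TNFRSF10A was 9.46-fold lower in erlotinib_24h (log2 -3.24 ± 0.30, adjusted p = 3.63e-08) and 3.70-fold lower in DTP (-1.89 ± 0.28, adjusted p = 1.76e-05). DTP stood above erlotinib_24h by 1.36 ± 0.28 (adjusted p = 0.000655). Carboplatin_72h had 24.9, 26.1 and 24.9 CPM, below all 3 untreated libraries, yet the change of -0.34 ± 0.27 was not called (adjusted p = 0.292). Without replicate a of both TSA groups the same change had a smaller error and was called (-0.34 ± 0.07, adjusted p = 0.000485), as it was with carboplatin_72h and parental_DMSO fitted alone (-0.33, adjusted p = 0.000147); with spike-in library sizes the sign turned (0.31, adjusted p = 0.402).

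TNFRSF10B encodes DR5. It had 101, 102 and 97.6 CPM in parental_DMSO, 41.7, 40.4 and 43.2 in erlotinib_24h, and 64.1, 62.3 and 63.7 in DTP. In carboplatin_72h the libraries had 132, 133 and 133 CPM. The 4 groups did not overlap: carboplatin_72h was highest, followed by parental_DMSO, DTP and erlotinib_24h. The gene fell 2.40-fold in erlotinib_24h (-1.26 ± 0.08, adjusted p = 1.87e-10) and 1.58-fold in DTP (-0.66 ± 0.08, adjusted p = 1.11e-06). It rose 1.32-fold in carboplatin_72h (0.41 ± 0.08, adjusted p = 0.000228), and by 1.05 on the log2 scale with spike-in library sizes (adjusted p = 0.000145). DTP exceeded erlotinib_24h by 0.60 ± 0.08 (adjusted p = 4.02e-06). Per read of TNFRSF10A, the reads of TNFRSF10B numbered 3.14 ± 0.0410 in parental_DMSO, 12.4 ± 1.29 in erlotinib_24h, 7.34 ± 0.421 in DTP and 5.25 ± 0.127 in carboplatin_72h (mean ± SD, n = 3), so the balance of the DR4 and DR5 transcripts lay further toward DR5 in all 3 drug groups. The ratio was highest in the TSA groups, at 21.3 ± 9.62 in parental_TSA and 23.0 ± 9.51 in DTP_TSA, with library a the highest in both.

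FAS, the receptor of the FAS ligand, passed the threshold in none of the 9 comparisons. Its lowest and highest values were 8.01 and 8.63 CPM in parental_DMSO, 7.24 and 8.14 in DTP, 7.61 and 7.80 at 24 hours of erlotinib, 7.59 and 7.86 in the carboplatin libraries, 6.49 and 7.69 in parental_TSA, and 6.63 and 9.05 in DTP_TSA, where library a was the highest. Apart from parental_DMSO and carboplatin_72h, neighbours in the order of group means overlapped, and the highest group mean was 1.19-fold the lowest. The changes against parental_DMSO were -0.11 ± 0.11 in erlotinib_24h (adjusted p = 0.411), -0.10 ± 0.11 in DTP (adjusted p = 0.454), -0.10 ± 0.11 in carboplatin_72h (adjusted p = 0.458) and -0.25 ± 0.11 in parental_TSA (adjusted p = 0.0633); the unadjusted p of the last was under 0.05 in edgeR, and it was called by DESeq2 (-0.25, adjusted p = 0.043), without parental_TSA b (-0.33, adjusted p = 0.0322) and without DTP_TSA a (-0.25, adjusted p = 0.00729). With erlotinib_24h and parental_DMSO fitted alone, FAS was called lower there too (-0.15, adjusted p = 0.0391). With spike-in library sizes FAS was called lower in erlotinib_24h (-0.47, adjusted p = 0.0233) and higher in carboplatin_72h (0.54, adjusted p = 0.0102). The medians of all genes on that scale were -0.23 and 0.72, and the changes of FAS relative to them were -0.24 and -0.18. The gene of its ligand, FASLG, had at most 3 reads in a group and was not tested.

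The decoy receptor genes moved apart from each other and, in part, from the death receptors. TNFRSF10D, the gene of DcR2, was at 50.1, 49.5 and 49.3 CPM in parental_DMSO, 12.4, 12.9 and 12.1 in erlotinib_24h, and 10.6, 10.7 and 11.4 in DTP. In carboplatin_72h it was at 191, 198 and 191 CPM. Among the 10 genes it had the largest fall in DTP, 4.57-fold (-2.19 ± 0.07, adjusted p = 1.33e-13), and it fell 3.99-fold in erlotinib_24h (-2.00 ± 0.07, adjusted p = 1.4e-13). It rose 3.89-fold in carboplatin_72h (1.96 ± 0.07, adjusted p = 6.34e-13), and by 2.61 on the log2 scale with spike-in library sizes. Between the drugs the difference was 17.8-fold against DTP (4.15 ± 0.08, adjusted p = 1.99e-16) and 15.5-fold against erlotinib_24h (3.96 ± 0.08, adjusted p = 1.25e-16). DTP was slightly lower than erlotinib_24h (-0.20 ± 0.07, adjusted p = 0.0266); this call was lost without DTP a, DTP b, erlotinib_24h a or erlotinib_24h b (-0.19 to -0.17, adjusted p = 0.0652 to 0.105) and without the filter on low counts (-0.17, adjusted p = 0.12), and the sign turned with spike-in library sizes (0.26, adjusted p = 0.231).

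TNFRSF10C, the gene of DcR1, stayed at or under 0.572 CPM in all 18 libraries. Its reads numbered 3 in DTP, 7 in parental_DMSO, 46 in erlotinib_24h, 84 in carboplatin_72h, 92 in parental_TSA and 122 in DTP_TSA. Against parental_DMSO it was called higher in erlotinib_24h (2.48 ± 0.63, adjusted p = 0.00217) and in carboplatin_72h (3.49 ± 0.62, adjusted p = 0.00012), from a level near the limit of detection. TNFRSF10C passed the expression filter through the groups where it is high. It therefore had to differ somewhere, and its calls here and below are only a description. DTP and parental_DMSO were not told apart (adjusted p = 0.232). Per unit of library size the read ratio to DTP was 14.9 (95% exact interval 4.78 to 74.7) in erlotinib_24h and 29.7 (9.82 to 147) in carboplatin_72h. The exons of TNFRSF10C share 28.2% of their bases with AC107959.4 on the same strand in GENCODE v29, and the 4 TNFRSF10 genes are neighbours with similar sequences, so reads may have been split between them.

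Per kilobase of median coding transcript in GENCODE v29, which may not be the annotation the authors used, TNFRSF10B led the receptor genes in parental_DMSO with 34.2 CPM per kb, and FAS followed TNFRSF10A and TNFRSF10D with 5.98. TNFRSF10A had 17.3 and TNFRSF10D 14.0 CPM per kb, an order that turned when the longest transcript was used (11.8 and 14.0). In carboplatin_72h TNFRSF10D led, with 54.6 CPM per kb against 45.2 for TNFRSF10B. Reads of TNFRSF10D per read of TNFRSF10A plus TNFRSF10B, a ratio chosen after the values were seen, were 0.376 ± 0.00795 in parental_DMSO, 0.276 ± 0.0167 in erlotinib_24h, 0.151 ± 0.00623 in DTP and 1.22 ± 0.0174 in carboplatin_72h (mean ± SD, n = 3). The carboplatin libraries lay at 1.21 to 1.24, above every other library.

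**Figure D2:**
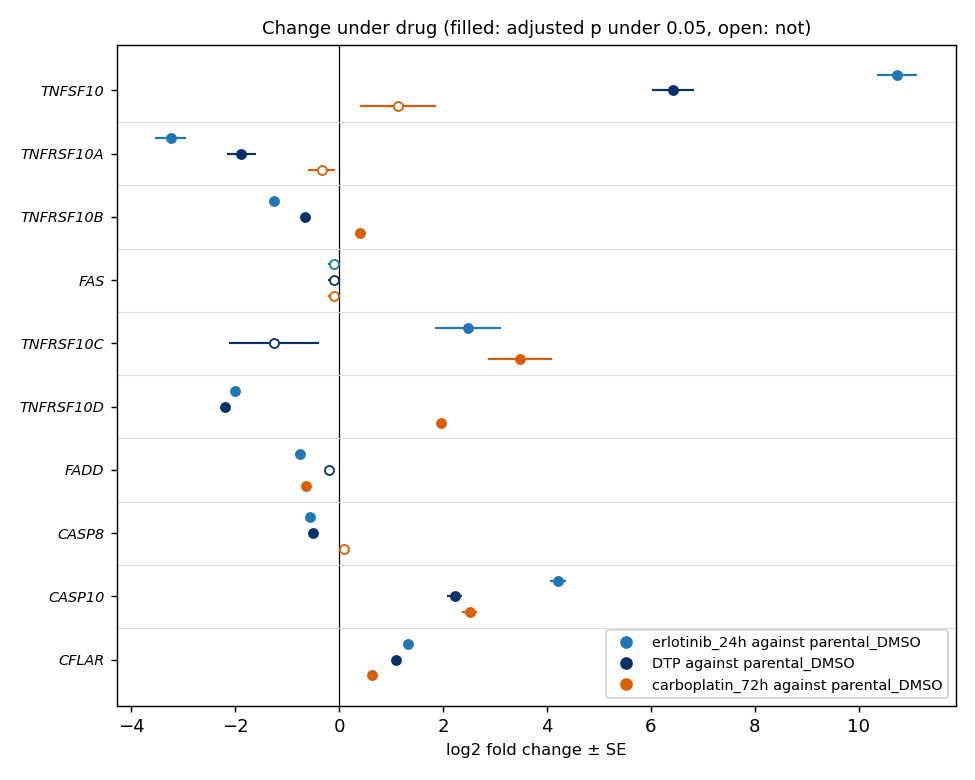
Log2 fold change against parental_DMSO (horizontal axis, with SE bars) of each gene in erlotinib_24h, DTP and carboplatin_72h; filled symbols passed an adjusted p of 0.05 and open symbols did not. TNFRSF10D lies at -2.00 and -2.19 in the erlotinib groups and at 1.96 under carboplatin, while CASP10 and CFLAR lie above 0 in all 3.

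Inside the receptor complex, the genes of the adaptor and of the caspases moved in different directions. CASP10, an initiator caspase close to CASP8, rose in all 3 drug groups. It had 3.68, 3.06 and 3.07 CPM in parental_DMSO and 61.1, 59.2 and 61.7 in erlotinib_24h. DTP had 15.7, 15.3 and 14.8 CPM and carboplatin_72h had 17.9, 19.5 and 18.6. No treated library overlapped the untreated ones, and the 24-hour libraries were the highest of all 18. CASP10 was 18.5-fold higher in erlotinib_24h (4.21 ± 0.15, adjusted p = 1.53e-13), 4.67-fold in DTP (2.22 ± 0.14, adjusted p = 6.88e-10) and 5.71-fold in carboplatin_72h (2.51 ± 0.14, adjusted p = 2.05e-10). With spike-in library sizes the change in carboplatin_72h was 3.17. DTP was 3.97-fold lower than erlotinib_24h (-1.99 ± 0.13, adjusted p = 1.54e-09). Carboplatin_72h lay above DTP by 0.29 ± 0.13 without a call (adjusted p = 0.0675); DESeq2 called it (0.30, adjusted p = 0.034), as did the fit of both groups alone (0.26, adjusted p = 0.00144).

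CASP8, the main initiator caspase of these receptors, changed less. Its libraries held 47.2 to 49.9 CPM in parental_DMSO, 32.3 to 33.7 in erlotinib_24h, 33.5 to 34.7 in DTP and 49.8 to 52.2 in carboplatin_72h. Both erlotinib groups lay below the untreated libraries and overlapped each other. CASP8 fell 1.47-fold in erlotinib_24h (-0.55 ± 0.08, adjusted p = 1.21e-05) and 1.42-fold in DTP (-0.51 ± 0.08, adjusted p = 4.39e-05); with spike-in library sizes the change in DTP was -0.42 and was not called (adjusted p = 0.106). Carboplatin_72h gave 0.085 ± 0.081 (adjusted p = 0.387), and 0.74 with spike-in library sizes (adjusted p = 0.00499). The median of all genes on the spike-in scale was 0.72 there, and the change of CASP8 relative to it was 0.02. CASP10 reads per CASP8 read went from 0.0679 ± 0.00884 in parental_DMSO to 1.85 ± 0.0348 in erlotinib_24h, 0.450 ± 0.0200 in DTP and 0.365 ± 0.0158 in carboplatin_72h (mean ± SD, n = 3), so CASP10 reads outnumbered those of CASP8 in the 24-hour erlotinib cells.

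FADD, the adaptor that links receptors to caspases, held 74.3 to 76.5 CPM in parental_DMSO, 43.9 to 45.1 in erlotinib_24h, 65.5 to 66.9 in DTP and 47.0 to 50.0 in carboplatin_72h, and none of the drug groups overlapped the untreated one. It fell 1.70-fold in erlotinib_24h (-0.76 ± 0.08, adjusted p = 3.76e-07) and 1.56-fold in carboplatin_72h (-0.64 ± 0.08, adjusted p = 5.25e-06), the latter gone with spike-in library sizes (0.00, adjusted p = 0.976). In DTP the change of -0.19 ± 0.08 missed the threshold (adjusted p = 0.0599); it was called at -0.19 without DTP_TSA a (adjusted p = 0.0366), parental_TSA a (adjusted p = 0.00352) or parental_TSA c (adjusted p = 0.0256). DTP exceeded erlotinib_24h by 0.57 ± 0.08 (adjusted p = 1.87e-05). In GENCODE v29, 53.0% of FADD exon bases overlap AP000879.1 on the opposite strand, and whether the counting used strand is not given in the sources used here.

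CFLAR, whose product FLIP restrains CASP8, rose in all 3 drug groups. The libraries had 36.6, 36.3 and 35.1 CPM in parental_DMSO, 90.7, 90.6 and 89.5 in erlotinib_24h, and 76.95, 77.08 and 77.03 in DTP. Carboplatin_72h had 56.2, 56.7 and 54.5 CPM. The 4 groups did not overlap. CFLAR was 2.51-fold higher in erlotinib_24h (1.33 ± 0.07, adjusted p = 1.42e-11), 2.14-fold in DTP (1.10 ± 0.07, adjusted p = 3.52e-10) and 1.55-fold in carboplatin_72h (0.63 ± 0.07, adjusted p = 4.03e-07; 1.28 with spike-in library sizes). DTP was lower than erlotinib_24h by a small step (-0.23 ± 0.07, adjusted p = 0.00717), whose sign turned with spike-in library sizes (0.22, adjusted p = 0.292). CFLAR reads per CASP8 read were 0.746 ± 0.0259 in parental_DMSO, 2.74 ± 0.0588 in erlotinib_24h, 2.27 ± 0.0431 in DTP and 1.09 ± 0.00458 in carboplatin_72h (mean ± SD, n = 3). These ratios compare reads, not molecules, since both genes have transcripts of very different lengths. The counts do not separate the long and short FLIP transcripts. CFLAR, CASP10 and CASP8 lie side by side on chromosome 2, in that order, with no other protein-coding gene between neighbours.

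**Figure D3:**
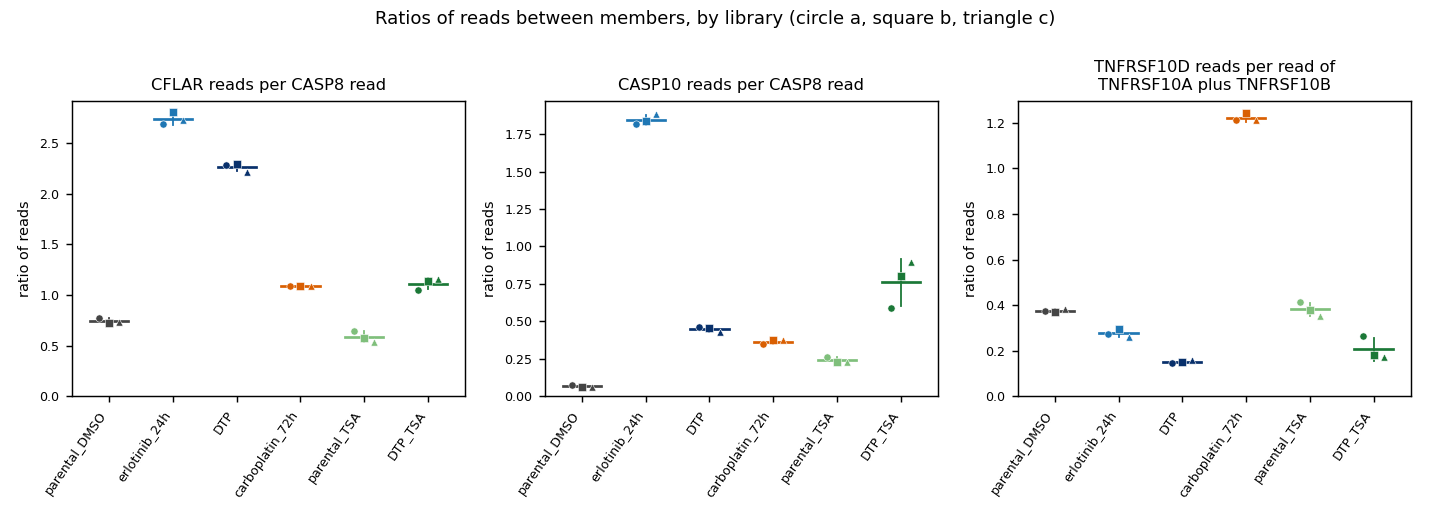
Ratios of reads between genes (vertical axes, linear from 0) in the 6 groups; each symbol is 1 library, horizontal bars are means and vertical bars the SD (n = 3). CFLAR reads exceed CASP8 reads in erlotinib_24h, DTP, DTP_TSA and carboplatin_72h (2.74, 2.27, 1.11 and 1.09 per CASP8 read). CASP10 reads exceed those of CASP8 in erlotinib_24h (1.85), and TNFRSF10D reads exceed those of TNFRSF10A plus TNFRSF10B in carboplatin_72h (1.22).

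Counted over the 10 genes against parental_DMSO, 4 rose and 5 fell in erlotinib_24h, where 36.6% of all genes tested rose and 32.7% fell. In DTP 3 rose and 4 fell, beside 31% and 27.8% of all genes. In carboplatin_72h 5 rose and 1 fell, beside 30.3% and 28.6%. The median log2 change of the 10 was -0.33, -0.35 and 0.52, beside 0.11, 0.06 and 0.06 over all genes. All 10 passed the expression filter, TNFSF10 and TNFRSF10C through the groups where they are high, so those counts include genes that had to differ somewhere. Without DTP_TSA a and with TMM scaling, all genes split into 7227 higher and 6223 lower in erlotinib_24h, 6327 and 5461 in DTP, and 6297 and 5642 in carboplatin_72h, with medians of 0.12, 0.07 and 0.07. Spike-in library sizes, over the same 17 libraries, gave 4665 and 7207, 5631 and 3224, and 10618 and 1213, with medians of -0.23, 0.16 and 0.72. On that scale 4 of the 10 rose and 6 fell in erlotinib_24h, 3 rose and 3 fell in DTP, and 8 rose and 0 fell in carboplatin_72h. In carboplatin_72h, changes relative to that shifted median were 1.89 for TNFRSF10D, 0.33 for TNFRSF10B, 0.02 for CASP8, -0.18 for FAS, -0.41 for TNFRSF10A and -0.72 for FADD.

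Between the drug groups, 3 of the 10 were higher and 5 lower in DTP than in erlotinib_24h, beside 30.5% and 24.8% of all genes. Those higher were TNFRSF10A, TNFRSF10B and FADD, and those lower were TNFSF10, TNFRSF10C, TNFRSF10D, CASP10 and CFLAR; CASP8 (0.05 ± 0.08) and FAS (0.00 ± 0.11) were not called. TNFSF10, TNFRSF10A, TNFRSF10B, FADD, CASP10, CFLAR, CASP8 and FAS each had a DTP mean between those of parental_DMSO and erlotinib_24h. For CASP8 (34.0 and 32.9 CPM) and FAS (7.70 and 7.68 CPM) the means of DTP and erlotinib_24h were close. For TNFRSF10C and TNFRSF10D the DTP mean lay below both. How many of all genes had such a DTP mean was not counted. Carboplatin_72h against erlotinib_24h had 4 higher and 3 lower, beside 34% and 33.3%. TNFRSF10A, TNFRSF10B, TNFRSF10D and CASP8 were the higher ones, and TNFSF10 was 785-fold lower (-9.62 ± 0.35, adjusted p = 2.83e-13). Carboplatin_72h against DTP had 5 higher and 3 lower, beside 29.4% and 30.9%: the 4 TNFRSF10 genes and CASP8 were higher, and TNFSF10, FADD and CFLAR were lower. CFLAR was lower in carboplatin_72h than in erlotinib_24h (-0.70 ± 0.07, adjusted p = 6.58e-08) and in DTP (-0.47 ± 0.07, adjusted p = 1.12e-05), signs that turned with spike-in library sizes (0.32 and 0.09), as did that of FADD against DTP (-0.45 to 0.10). The median over the 10 was -0.10, 0.38 and 0.44 in these comparisons, beside 0.03, 0.02 and 0.02 over all genes. Without DTP_TSA a and with TMM scaling, all genes split into 6109 higher and 5231 lower, 6703 and 6499, and 6065 and 6152, with medians of 0.04, 0.03 and 0.03. Over the same 17 libraries, spike-in library sizes gave 8502 and 2030, 11903 and 2210, and 9397 and 2605, with medians of 0.48, 1.03 and 0.58. On that scale 5 of the 10 were higher and 3 lower in DTP than in erlotinib_24h, where CASP8 (0.50, adjusted p = 0.0478) and FAS (0.46, adjusted p = 0.0304) were called higher and TNFRSF10D and CFLAR were no longer called. Carboplatin_72h then had 7 higher and 2 lower against erlotinib_24h, and 7 higher and 1 lower against DTP. These comparisons share libraries with those against parental_DMSO and are not independent of them.

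After TSA, CFLAR, FADD, CASP8 and TNFRSF10A fell in parental and in DTP cells, though with spike-in library sizes the falls of CASP8 (-0.40, adjusted p = 0.19) and TNFRSF10A (-0.97, adjusted p = 0.0523) in DTP cells were not called. CFLAR had 16.25, 18.14 and 17.98 CPM in parental_TSA, below all 3 untreated libraries, and 22.1, 26.4 and 27.0 in DTP_TSA against 76.95 to 77.08 in DTP. It fell 2.06-fold in parental cells (-1.04 ± 0.07, adjusted p = 1.3e-09) and 3.05-fold in DTP cells (-1.61 ± 0.07, adjusted p = 9.78e-12). CFLAR reads per CASP8 read were 0.589 ± 0.0556 in parental_TSA and 1.11 ± 0.0580 in DTP_TSA (mean ± SD, n = 3). DTP cells after TSA thus held a lower CFLAR level in CPM than untreated parental cells, but more per CASP8 read. TNFRSF10A had 3.25, 6.94 and 9.18 CPM in parental_TSA and 1.69, 4.09 and 3.92 in DTP_TSA, with library a the lowest in both. It fell by 2.29 ± 0.28 on the log2 scale in parental cells (adjusted p = 2.66e-06) and by 1.37 ± 0.29 in DTP cells (adjusted p = 0.000618), and by 1.98 and 1.12 without replicate a of both groups.

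FADD held 48.3 to 64.8 CPM in parental_TSA and 30.7 to 35.3 in DTP_TSA. It fell 1.37-fold in parental cells (-0.45 ± 0.08, adjusted p = 0.000189) and 1.96-fold in DTP cells (-0.97 ± 0.08, adjusted p = 4.97e-08). CASP8 held 25.01 to 33.27 CPM in parental_TSA and 21.1 to 23.3 in DTP_TSA, and fell by 0.69 ± 0.08 (adjusted p = 1.76e-06) and 0.59 ± 0.08 (adjusted p = 1.17e-05). CASP10 went the other way in parental cells, at 6.60, 7.29 and 7.52 CPM, a 2.19-fold rise (1.13 ± 0.14, adjusted p = 3.26e-06). In DTP_TSA it was at 12.4, 18.6 and 20.9 CPM, spread on both sides of the DTP libraries, with 0.19 ± 0.13 and no call (adjusted p = 0.235); without replicate a of both TSA groups it was called (0.37, adjusted p = 7.85e-05).

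TNFSF10 changed in opposite directions under TSA. Parental_TSA had 0.199, 0.355 and 0.463 CPM, above every untreated library, and DTP_TSA had 1.48, 2.91 and 2.86 CPM, below every DTP library. The read ratio to parental_DMSO was 7.40 (95% exact interval 3.98 to 15.3) in parental_TSA, with a log2 change of 2.81 ± 0.55 (adjusted p = 0.000338). In DTP cells it fell 1.76-fold (-0.82 ± 0.24, adjusted p = 0.00722), by 0.61 without replicate a of both TSA groups (adjusted p = 0.000292), and without a call with spike-in library sizes (-0.47, adjusted p = 0.275). TNFRSF10C rose in both, from 7 to 92 reads in parental cells (3.06 ± 0.61, adjusted p = 0.000406) and from 3 to 122 reads in DTP cells, a read ratio of 43.9 (95% exact interval 14.7 to 216; adjusted p of the fit 5.04e-06). TNFRSF10D had 44.5, 49.0 and 48.8 CPM in parental_TSA, with no call (-0.06 ± 0.07, adjusted p = 0.437), and 15.7, 13.6 and 12.6 in DTP_TSA, a rise of 0.35 ± 0.07 (adjusted p = 0.000432) that was not called with spike-in library sizes (0.41, adjusted p = 0.116). TNFRSF10B had 105, 122 and 129 CPM in parental_TSA, a rise of 0.245 ± 0.076 (adjusted p = 0.0112) that was lost without parental_TSA c (0.18, adjusted p = 0.0598), with both groups fitted alone (0.25, adjusted p = 0.0518) and with spike-in library sizes (0.28, adjusted p = 0.244). In DTP_TSA it had 57.5, 70.5 and 69.6 CPM and no call (0.06 ± 0.08, adjusted p = 0.538), but was called without replicate a of both TSA groups (0.14, adjusted p = 0.00268).

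**Figure D4:**
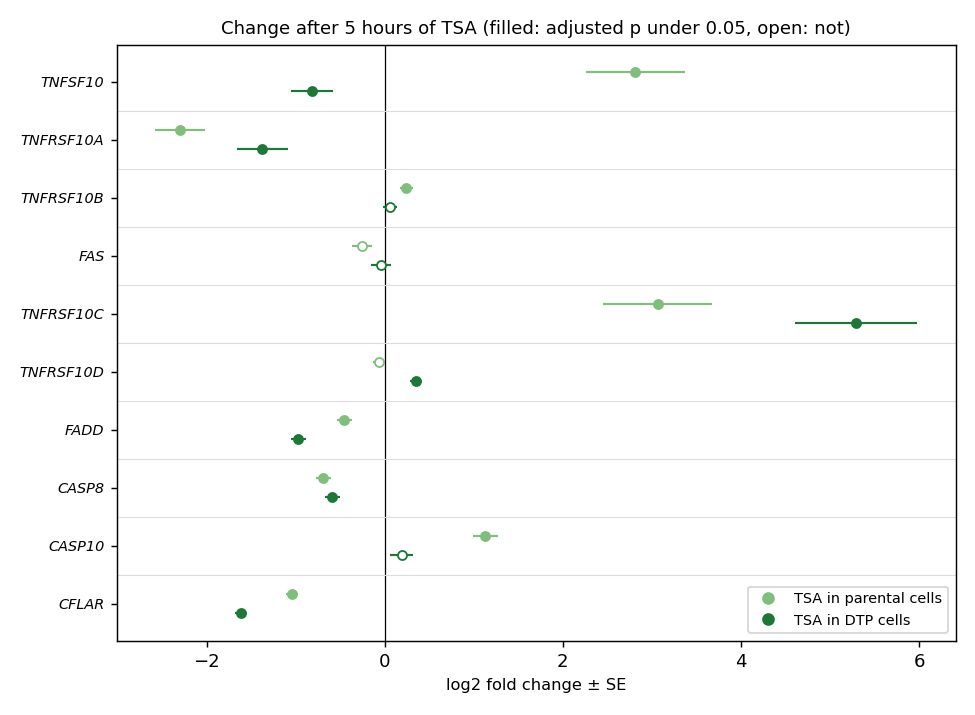
Log2 fold change after TSA (horizontal axis, with SE bars) of each gene in parental cells (parental_TSA against parental_DMSO) and in DTP cells (DTP_TSA against DTP); filled symbols passed an adjusted p of 0.05 and open symbols did not. TNFSF10 lies at 2.81 in parental and -0.82 in DTP cells, and CFLAR at -1.04 and -1.61.

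Under TSA 4 of the 10 genes rose and 4 fell in parental cells, beside 30.8% and 27.4% of all genes, and 2 rose and 5 fell in DTP cells, beside 25.6% and 30.7%. The median over the 10 was -0.16 and -0.32, beside 0.06 and -0.08 over all genes. Without replicate a of both TSA groups, 9 genes were called in parental and 10 in DTP cells, where FAS then fell (-0.20, adjusted p = 0.0266); of all genes 12523 and 12693 were called there, against 10267 and 9915 with all libraries, so calls rose over all genes too. On the spike-in scale 3 were called in DTP cells (CFLAR, FADD and TNFRSF10C), and all genes there split into 4446 higher and 2582 lower (median 0.11). With TMM scaling and without DTP_TSA a, 9 were called, and all genes split into 5137 higher and 5601 lower (median -0.04). The difference between both TSA effects was tested directly. It was called for 5 of the 10, higher in DTP for 1 and lower for 4, beside 15.3% and 23% of all genes, with a median of -0.04 over the 10 and -0.11 over all genes. The effect in DTP minus that in parental cells was -3.63 ± 0.60 for TNFSF10 (adjusted p = 0.000166), -0.94 ± 0.19 for CASP10 (adjusted p = 0.00114), -0.57 ± 0.10 for CFLAR (adjusted p = 0.000194), -0.52 ± 0.12 for FADD (adjusted p = 0.00267) and 0.42 ± 0.10 for TNFRSF10D (adjusted p = 0.0031). For TNFRSF10A it was 0.92 ± 0.39 (adjusted p = 0.076), and it was called without DTP_TSA a (1.17, adjusted p = 0.0108) or parental_TSA c (1.26, adjusted p = 0.0112) and by DESeq2 (0.96, adjusted p = 0.0363). Without replicate a of both TSA groups the difference was called for 7 of the 10. Among them were TNFRSF10A (0.86, adjusted p = 2.98e-05) and TNFRSF10B (-0.19, adjusted p = 0.00489). Of all genes, 9355 were called there, against 6750 with all libraries. With spike-in library sizes the difference was called for TNFSF10 alone among the 10 (-3.32, adjusted p = 0.00283).

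Other death ligand and receptor genes were taken from a list of 10, of which 8 were tested. Of all genes tested, 31% rose and 27.8% fell in DTP, 36.6% and 32.7% in erlotinib_24h, and 30.3% and 28.6% in carboplatin_72h. Over all genes TSA gave 30.8% higher and 27.4% lower in parental cells, and 25.6% and 30.7% in DTP cells. In DTP 5 rose and 0 fell (median 1.10), among them TNF (0.262 to 4.91 CPM; 4.22 ± 0.18, adjusted p = 4.12e-12), TNFRSF21 (DR6; 0.47 ± 0.04, adjusted p = 9.32e-08) and TNFRSF11B, which encodes osteoprotegerin, a soluble receptor that also binds TRAIL. TNFRSF11B went from 0.398 ± 0.0688 CPM in parental_DMSO to 12.9 ± 0.166 in DTP (5.01 ± 0.24, adjusted p = 1.96e-11) and fell to 2.44 ± 0.676 in DTP_TSA (-2.38 ± 0.21, adjusted p = 4.91e-08). In erlotinib_24h 6 rose and 2 fell (median 1.27), with TNF and TNFRSF21 higher (4.47 and 0.86) and TNFSF15, the ligand of DR3, lower (-3.67). In carboplatin_72h 4 rose and 1 fell (median 0.77): TNFSF15 and TNF were higher (2.32 and 3.45) and TNFRSF21 lower (-0.81). TSA gave 2 higher and 2 lower in parental cells (median -0.06; TNF 4.65, TNFRSF21 -0.84, TNFSF15 -0.93) and 1 higher and 3 lower in DTP cells (median -0.35), the lower ones being TNFRSF11B, TNFRSF21 (-0.58) and TNFRSF1A (-0.50).

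Of 13 adaptor and brake genes 12 were tested; RIPK3, a kinase of necroptosis, had at most 2 reads in a group. In DTP 6 rose and 3 fell (median 0.19), led by PEA15, another death effector domain protein (1.10 ± 0.05, adjusted p = 2.41e-12), BIRC3, an inhibitor of apoptosis (1.83 ± 0.11, adjusted p = 1.95e-10), and MLKL, the effector of necroptosis, which fell (-1.23 ± 0.08, adjusted p = 4.81e-10). In erlotinib_24h 4 rose and 6 fell (median -0.21), with MLKL at -3.36, FAF1 at -1.41 and BIRC3 at 1.05. In carboplatin_72h 7 rose and 3 fell (median 0.28), with FAF1 at -2.03, PEA15 at 0.94 and CYLD at 1.70. TSA gave 1 higher and 8 lower in parental cells (median -0.40; MLKL -1.58, TNFAIP3 -1.29, RIPK1 -1.33) and 1 higher and 9 lower in DTP cells (median -0.60; MLKL -1.78, DAXX -0.60, TNFAIP3 -0.99), beside the same shares of all genes as given above. These lists were chosen with earlier results of these data known.

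By likeness of pattern, the Pearson r of log2 CPM over the 18 libraries among 13377 genes of at least 1 CPM on average, TNFSF10 was nearest to TPP1 (0.989), ALPG (0.987) and LYPD6B (0.987); ALPG is uncertain, because its reads may be split with other alkaline phosphatase genes of nearly the same sequence. TNFRSF10B was nearest to KCTD9 (0.983), DUSP6 (0.977) and STIL (0.977), and CFLAR to ELF1 (0.982), GATA3 (0.980) and PCGF3 (0.974). FAS had no close match: NME6 (0.828), CWC25 (0.735) and ZSCAN20 (0.727) were the nearest. The libraries form 6 groups, so these r values describe mostly the group means.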

How the data were processed

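RNA was measured in 18 PC9 libraries, grouped by the sample titles. The authors deposited expected counts, estimated reads per gene and per ERCC spike-in transcript, without scaling between libraries; the submitters' processing notes name Salmon, with no version. Build, annotation and strand setting were not given in the sources used here. Per the labels' protocols, spike-ins were added by cell number. Of 30727 identifiers, 27814 matched a symbol; those without took 0.247% of gene reads. A further 3 columns per table belong to no listed sample and were left out.

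Expected counts were rounded, filtered by filterByExpr (count minimum 10), scaled by TMM and tested with edgeR 4.0.16 (limma 3.58.1, R 4.3.3), in 1 quasi-likelihood fit of 18 libraries with a term per group and no covariate (12 residual degrees of freedom, biological coefficient of variation 0.136). There were 9 contrasts, adjusted by Benjamini and Hochberg within each over 17641 genes at 0.05; the SE is the log2 change divided by the root of F. Fold changes of genes with few reads depend on the prior count, so read ratios with 95% exact intervals are given beside them. The precision of each value follows from its reads and from 3 libraries per group.

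All 10 genes were named in each comparison, and from other lists up to 3 genes with the smallest p among those called; some of these are not reported here. The members and lists were chosen with earlier results of these data known. Pattern likeness used log2(CPM + 0.5). Alternatives were DESeq2 1.42.0, its size factors in edgeR, a block for the replicate letter, no filter or 1 CPM in 3 libraries, groups alone, spike-in library sizes without DTP_TSA a, replicate a of both TSA groups left out, and each library left out. The test was checked on simulated counts of DTP against parental_DMSO over 17641 genes, with 50 genes changed at each of 1.5-, 2-, 4- and 8-fold. It recovered 28, 35, 45 and 45 of them, with 7 false calls. Far fewer genes changed there than the 10382 called in the data, so the check does not cover changes that broad. Exon overlaps and lengths come from GENCODE v29, promoters from RefSeq (GRCh38.p14). Figures used matplotlib 3.10.9 in Python 3.11.15.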

Additional observations from a re-analysis of the deposited data

Results flagged for a closer look

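For 5 of the 10 genes the effect of TSA differed between DTP and parental cells by the test of the difference itself, edgeR's quasi-likelihood interaction term, which called 15.3% of all genes tested higher and 23% lower in DTP. For TNFSF10 the effect in DTP minus that in parental cells was -3.63 (log2, adjusted p = 0.000166). Every parental_TSA library lay above every parental_DMSO library, and every DTP_TSA library lay below every DTP library. CASP10 differed by -0.94 (adjusted p = 0.00114), rising in parental cells with no call in DTP cells. CFLAR differed by -0.57 (adjusted p = 0.000194) and FADD by -0.52 (adjusted p = 0.00267), both falling further in DTP cells. TNFRSF10D differed by 0.42 (adjusted p = 0.0031), with a rise in DTP cells and no call in parental cells. Without replicate a of both TSA groups the differences were -3.63, -0.82, -0.54, -0.33 and 0.28 in that order, all called. TNFRSF10A (0.86) and TNFRSF10B (-0.19) were then called as well. With spike-in library sizes and without DTP_TSA a the differences of the same 5 genes were -3.32, -0.63, -0.36, -0.28 and 0.45, and TNFSF10 alone was called. TNFSF10 had 11 reads in parental_DMSO, so its parental effect rests on few reads.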

How the results depend on the processing

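Of 90 values (10 genes in 9 comparisons), the direction and call held for 85 with DESeq2, 86 with its size factors in edgeR, 87 without a filter, 74 of 81 with the 1 CPM filter, 74 of 85 with groups alone, 78 without replicate a of both TSA groups, 61 with spike-in library sizes and 1574 of 1620 over single libraries left out. TNFRSF10C gave no value under the 1 CPM filter, nor in 4 comparisons of groups alone, and TNFSF10 none for carboplatin_72h against parental_DMSO alone, since these genes did not pass the filter there. The letters do not pair the libraries (45 same-letter pairs, correlations of -0.339 to 0.432, median -0.003; 7 of 18 libraries closest to their own letter), and the replicate block kept all 90 calls, with 10300 genes changed in DTP against 10382. With spike-in library sizes, where DTP_TSA a was also left out, 3 of the 10 were called in DTP_TSA against DTP, and 1 of the 10 and 2717 of all genes in the difference of TSA effects (6750 with all libraries). Without DTP_TSA a alone these counts were 9, 6 and 7850. The cause was not tested.

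Outside the spike-in scaling, the signs that turned were of FAS and CASP8. FAS gave -0.03 in DTP against erlotinib_24h and -0.03 in carboplatin_72h against erlotinib_24h with DESeq2 and with its size factors, which also gave 0.01 in DTP_TSA against DTP. Without a filter FAS gave 0.00 in carboplatin_72h against erlotinib_24h and -0.03 against DTP. With the 1 CPM filter it gave 0.06 in DTP_TSA against DTP, -0.06 in DTP and -0.05 in carboplatin_72h against erlotinib_24h, and CASP8 gave -0.02 in DTP against erlotinib_24h. With groups alone FAS gave 0.04, -0.03 and -0.01 in those 3 comparisons and -0.02 in carboplatin_72h against DTP, where it gave 0.00 without replicate a of both TSA groups. Spike-in library sizes turned 9 signs, 6 of them of changes called with TMM (all but those of TNFRSF10A, FAS and TNFRSF10B): TNFRSF10A (0.31), FAS (0.54) and FADD (0.00) in carboplatin_72h, TNFRSF10D (0.26) and CFLAR (0.22) in DTP against erlotinib_24h, CFLAR (0.32) in carboplatin_72h against erlotinib_24h, FADD (0.10) and CFLAR (0.09) in carboplatin_72h against DTP, and TNFRSF10B (0.01) in the difference of TSA effects. Single libraries left out gave FAS values of -0.03 to 0.05 in DTP against erlotinib_24h, -0.03 to 0.01 in carboplatin_72h against erlotinib_24h, -0.05 to 0.04 in carboplatin_72h against DTP and -0.20 to 0.03 in DTP_TSA against DTP, and -0.01 to 0.18 for CASP8 in the difference of TSA effects. Depth limits TNFSF10 in parental_DMSO and carboplatin_72h (11 and 25 reads) and TNFRSF10C throughout.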

Other observations

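Genes of the steps below the receptors, a list of 11 that were all tested, split in direction. Of all genes tested, 31% rose and 27.8% fell in DTP, 36.6% and 32.7% in erlotinib_24h, and 30.3% and 28.6% in carboplatin_72h. Over all genes TSA gave 30.8% higher and 27.4% lower in parental cells, and 25.6% and 30.7% in DTP cells. In DTP 3 rose and 5 fell (median -0.04): CYCS, which encodes cytochrome c, was among those that fell (-1.13 ± 0.09, adjusted p = 1.36e-08 by edgeR). In erlotinib_24h 3 rose and 5 fell (median -0.10), with CYCS at -2.64, CASP9 at 1.09 and DFFA at -1.40. In carboplatin_72h 4 rose and 3 fell (median 0.09), with DFFB at -2.57 and CASP9 at 0.73. After TSA 5 rose and 3 fell in parental cells (median 0.24; CASP9 1.53, APAF1 1.68, HTRA2 0.61), and 5 rose and 2 fell in DTP cells (median 0.27; CASP9 0.87, APAF1 1.00).

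Among 9 transcription factor genes known to act on members of this pathway, 6 rose and 2 fell in DTP (median 0.35): IRF1 went from 12.6 ± 0.655 to 40.7 ± 0.609 CPM (1.70 ± 0.06, adjusted p = 6.97e-13 by edgeR) and FOXO1 from 11.6 ± 0.471 to 20.3 ± 0.591 (0.80 ± 0.09, adjusted p = 6.85e-07; mean ± SD, n = 3). In erlotinib_24h 7 rose and 1 fell (median 0.45), with IRF1 at 65.5 ± 2.05 CPM (2.38 ± 0.07, adjusted p = 5.21e-15), FOXO1 at 0.95 and ATF4 at 0.46. In carboplatin_72h 5 rose and 4 fell (median 0.26; IRF1 1.22, NFKB1 -1.13, DDIT3, which encodes CHOP, 1.85). After TSA 3 rose and 4 fell in parental cells (median -0.18; IRF1 1.12, NFKB1 -1.32, ATF4 -0.30), and 2 rose and 6 fell in DTP cells (median -0.33; ATF4 -0.91, NFKB1 -1.27). The shares of all genes that rose and fell were 31% and 27.8% in DTP, 36.6% and 32.7% in erlotinib_24h, and 30.3% and 28.6% in carboplatin_72h. After TSA these shares were 30.8% and 27.4% in parental cells, and 25.6% and 30.7% in DTP cells. Any part of these factors in the levels of the death receptor genes was not tested.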
